A study of Mus musculus with 7 samples.

Results

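The complement genes described here are 9 of the 23337 genes measured in mouse bone marrow-derived macrophages: C1qa, C1qb, C1qc, C4b, C3, Cfb, Cfp, C3ar1 and C5ar1. They were taken by name, and all 9 were found in every library. Bone marrow-derived macrophages are marrow cells grown into macrophages in culture with M-CSF, the growth factor that drives the lineage. The marrow came from male mice aged 6 to 8 weeks, and all cultures had M-CSF at 25 ng/ml for 7 days. Knockout cells are labelled as knockout for Tgm2, which encodes transglutaminase 2, an enzyme that crosslinks proteins. The groups were knockout cells given LPS (lipopolysaccharide, an outer membrane molecule of Gram-negative bacteria) at 10 ng/ml for 6 hours (KO LPS, n = 2), wild-type cells given the same LPS (WT LPS, n = 2), knockout cells left without LPS (KO M0, n = 1) and wild-type cells left without LPS (WT M0, n = 2). The labels do not say how Tgm2 was inactivated, nor whether the libraries of a group came from separate mice or cultures. The p-values therefore reflect only how far these libraries lay apart, which may be technical.

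Complement is a set of blood and tissue proteins that coat microbes and dying cells and call in immune cells. C1q, built from the chains encoded by C1qa, C1qb and C1qc, starts the classical pathway, which passes through C4 and C2 to C3, the protein on which all pathways meet. The alternative pathway amplifies C3 cleavage with factor B (Cfb) and is stabilised by properdin (Cfp), and the released fragments C3a and C5a act on cells through the receptors C3ar1 and C5ar1. Macrophages and related myeloid cells are known as a main source of C1q, whereas the liver makes most circulating C3 and factor B.

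The values were TPM (length-scaled transcript abundance with the same total in each library), so levels of different genes can be set side by side. TPM keep no sequencing depth, which is therefore unknown. Tgm2 stood at 19.4 and 19.2 TPM in KO LPS, 233 and 199 TPM in WT LPS, 50.7 TPM in KO M0 and 433 and 368 TPM in WT M0. Macrophage markers were present throughout, with a sum of 39894 to 52801 TPM over 12 genes. The 6 T cell genes summed to 2.32 and 2.14 TPM in KO LPS, 1.69 and 1.92 TPM in WT LPS, 11.8 TPM in KO M0 and 11.7 and 14.8 TPM in WT M0, nearly all of it Cd4 without LPS, with the defining gene Cd3g listed at 0 in all 7 libraries. The 6 B cell genes summed to 0.133 to 1.04 TPM in LPS libraries and 2.03 to 2.18 TPM in untreated ones, with Pax5 at 0 throughout. The 4 monocyte genes summed to 71.5 to 280 TPM in LPS libraries and 10.5 to 17.9 TPM in untreated ones. Among them Ly6c2 rose and Ccr2 fell. The neutrophil genes summed to 305 to 527 TPM with LPS and 102 to 111 TPM without, and Cxcr2 was at 0 throughout. Among stromal genes, Col1a1 stood at 0 to 1.56 TPM with LPS and 10.4 to 18.6 TPM without. Pdgfrb went the other way, at 18.2 to 27.7 TPM with LPS and 1.81 to 2.29 TPM without. The part of these markers in the LPS changes was not tested. Both WT LPS libraries held Xist, the RNA of X inactivation, at 47.2 and 55.4 TPM although the mice are labelled male, against at most 0.00535 TPM in the other 5, and the Y-linked genes were lowest in the same libraries. The WT LPS libraries held 32.8 and 37.2 TPM of Eif2s3y, against 66.1 to 78.3 TPM in the other 5, and 20.3 and 23.5 TPM of Ddx3y, against 32.2 to 56.4 TPM. The part of this difference in the comparisons that use WT LPS was not tested. Results that use WT LPS can be had without either library but not without both. In bulk samples, fewer cells of a type and less RNA per cell cannot be told apart.

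Untreated macrophages held C1q chains among their most abundant transcripts, and LPS lowered them in both genotypes while raising Cfb and C3. In KO LPS relative to KO M0, 2 of the 9 genes rose and 5 fell, and in WT LPS relative to WT M0, 2 rose and 6 fell. The limma test at an adjusted p of 0.05 called 38.1% of all 11096 tested genes in the knockout comparison (13.8% higher, 24.3% lower) and 44.6% in the wild-type comparison (15% higher, 29.6% lower). The median log2 fold change of the 9 genes was -0.95 in knockout and -0.66 in wild type, against -0.24 and -0.21 over all tested genes. Since the median gene lay below 0 under LPS, and median-ratio scaling of the libraries moved it by 0.23 in knockout and 0.22 in wild type, fold changes under LPS are also given relative to the median gene. With that scaling the called genes split into 2110 higher and 1849 lower in knockout, in place of 1533 and 2700, and into 2485 higher and 2288 lower in wild type, in place of 1665 and 3284. Every fold change was taken from log2(TPM + 1), so changes of genes near 0 come out too small, and the knockout comparison rests on 1 untreated library, whose spread was borrowed from the rest.

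**Figure D1:**
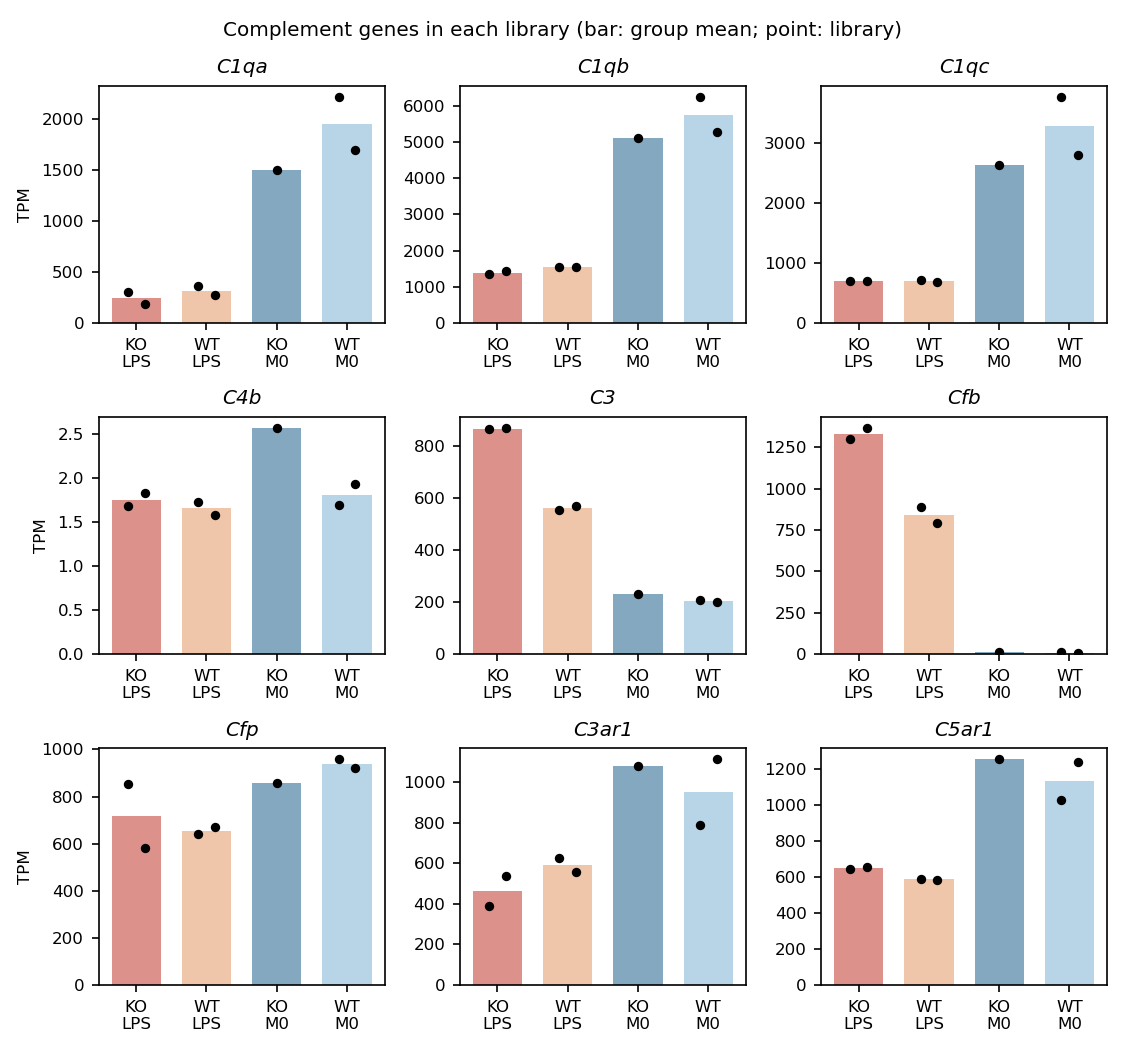
TPM (linear axis, from 0) of the 9 complement genes in KO LPS, WT LPS, KO M0 and WT M0; bars are group means and points are single libraries. The C1q chains and the receptors stand higher in untreated cells, C3 and Cfb stand higher under LPS, and C4b stays at 2.57 TPM or less in every library.

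C1qb, the gene of the B chain, was the most abundant of the 9 in every group. Its level was 1341 and 1444 TPM in KO LPS, 1553 and 1554 TPM in WT LPS, 5114 TPM in KO M0 and 6238 and 5277 TPM in WT M0. The LPS libraries did not overlap with the untreated ones in either genotype. How many of all tested genes were so separated was not counted, here or for the genes below. C1qb ranked 9th of all genes in WT M0 replicate 1, 14th in WT M0 replicate 2, 15th in KO M0 and 62nd to 75th in LPS libraries. It fell by 1.88 log2 units in knockout (SE 0.19, adjusted p 3.5e-05 by limma) and by 1.88 in wild type (SE 0.16, 6.1e-06), or -1.64 and -1.68 relative to the median gene.

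C1qc, the gene of the C chain, came second in untreated cells of both genotypes. Its level was 704 and 705 TPM in KO LPS, 714 and 683 TPM in WT LPS, 2635 TPM in KO M0 and 3762 and 2796 TPM in WT M0. All 4 LPS libraries lay between 683 and 714 TPM, far under the untreated ones. It fell by 1.90 log2 units in knockout (SE 0.21) and by 2.21 in wild type (SE 0.17), with limma adjusted p of 6.0e-05 and 3.6e-06, or -1.66 and -2.01 relative to the median gene, so LPS cells kept 26.7% and 21.3% of the untreated mean TPM.

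C1qa, the gene of the A chain, was the lowest of the chains in each library. It stood at 304 and 182 TPM in KO LPS, 363 and 271 TPM in WT LPS, 1503 TPM in KO M0 and 2216 and 1701 TPM in WT M0. The genotypes overlapped under LPS, and the KO LPS replicates were further apart for C1qa than for 95.8% of tested genes. C1qa fell by 2.67 log2 units in knockout (SE 0.30) and fell by 2.63 in wild type (SE 0.25), with limma adjusted p of 7.3e-05 and 1.4e-05, or -2.43 and -2.42 relative to the median gene.

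The chain genes lie side by side on chromosome 4 (GRCm38.p6, the assembly behind mm10), C1qb from 136880126 to 136886200, C1qc from 136889801 to 136892936 and C1qa from 136895916 to 136898844, with 3600 and 2979 bases between them. Together they made up 0.235% and 0.233% of the library total in KO LPS, 0.263% and 0.251% in WT LPS, 0.925% in KO M0 and 1.22% and 0.977% in WT M0. The ratio of C1qb to C1qa was 4.41 and 7.93 in KO LPS, 4.28 and 5.74 in WT LPS, 3.40 in KO M0 and 2.82 and 3.10 in WT M0, so every LPS library exceeded every untreated one. The ratio of C1qb to C1qc moved over a narrower range, 1.90 and 2.05 in KO LPS, 2.18 and 2.28 in WT LPS, 1.94 in KO M0 and 1.66 and 1.89 in WT M0. These ratios were not tested.

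**Figure D2:**
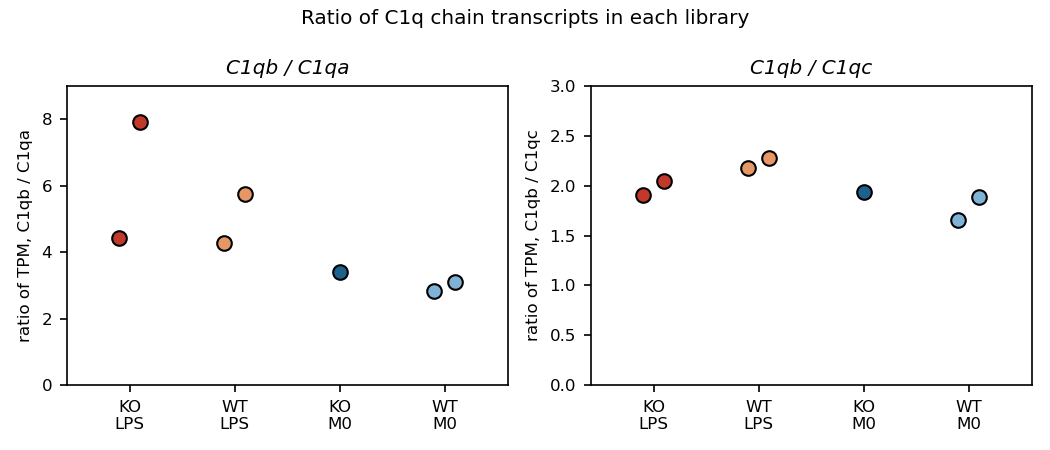
Ratio of TPM of C1qb to C1qa (left) and of C1qb to C1qc (right), linear axes from 0, 1 point per library in KO LPS, WT LPS, KO M0 and WT M0. The C1qb to C1qa ratio lies between 4.28 and 7.93 in LPS libraries and between 2.82 and 3.40 in untreated ones.

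The promoters of C1qb and C1qc, which fell together, and of C3, which rose, are shown as the 250 bases before a transcript start on the minus strand, from RefSeq (GRCm38.p6), at chr4:136886201-136886450, chr4:136892915-136893164 and chr17:57228137-57228386. The table of promoters held 6 of the 9 genes. Of these windows, 22 bases for C1qc and 202 bases for C5ar1 lie inside the gene's full span, and the other 4 lie outside it. Capitals mark a match to 1 of 6 searched motifs.
C1qb: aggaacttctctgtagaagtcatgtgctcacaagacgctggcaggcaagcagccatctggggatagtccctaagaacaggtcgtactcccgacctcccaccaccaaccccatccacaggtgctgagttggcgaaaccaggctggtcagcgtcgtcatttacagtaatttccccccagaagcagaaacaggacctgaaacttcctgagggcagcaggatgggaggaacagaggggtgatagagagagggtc
C1qc: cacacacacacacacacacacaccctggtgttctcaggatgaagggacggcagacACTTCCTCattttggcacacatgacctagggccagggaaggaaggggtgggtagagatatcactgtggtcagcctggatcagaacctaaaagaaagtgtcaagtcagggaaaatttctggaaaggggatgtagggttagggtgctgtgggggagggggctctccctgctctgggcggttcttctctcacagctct
C3: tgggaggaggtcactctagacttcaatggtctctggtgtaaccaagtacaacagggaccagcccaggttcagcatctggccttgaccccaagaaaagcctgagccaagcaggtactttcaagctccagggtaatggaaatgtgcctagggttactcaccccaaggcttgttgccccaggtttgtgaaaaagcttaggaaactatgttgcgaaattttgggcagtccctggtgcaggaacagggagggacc
Both strands were searched for the NF-kappaB motif in a form that ends in TTTCC and a form that begins with GGGA, the interferon response motif, GAGGAAGT (PU.1 type), TTCNNNGAA (STAT type) and TATAAA, where overlapping matches were allowed. The C1qc promoter held GAGGAAGT on the opposite strand, printed as ACTTCCTC, a motif found in 2.44% of 32851 mouse promoters of this length. C3ar1 held the form that ends in TTTCC (1.41% of all promoters) and TATAAA (12.4%). The form that begins with GGGA (1.21%), the interferon response motif (2.98%) and TTCNNNGAA (7.02%) were not found in the window of any of the 6. A match is a run of letters, not a site shown to be used.

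C4b, which encodes the complement C4 protein of the classical pathway in mice, was barely above the filter on low values. Its level was 1.69 and 1.83 TPM in KO LPS, 1.73 and 1.59 TPM in WT LPS, 2.57 TPM in KO M0 and 1.70 and 1.93 TPM in WT M0. The KO M0 library was the highest, and the WT LPS and WT M0 libraries overlapped. The LPS log2 fold change was -0.37 in knockout (95% interval -0.95 to 0.20, limma adjusted p 0.29) and -0.08 in wild type (-0.55 to 0.39, limma adjusted p 0.78), and the wild-type value turned positive with median-ratio scaling (0.07) and quantile normalization (0.27). Relative to the median gene C4b stood at -0.13 in knockout and 0.13 in wild type. C4a, a close copy of C4b on the same chromosome, stood between 0.0972 and 0.56 TPM, and how reads shared by both were assigned is not given in the sources used here.

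Cfb, factor B, showed the widest change of the 9. It stood at 1301 and 1365 TPM in KO LPS, 892 and 792 TPM in WT LPS, 9.83 TPM in KO M0 and 9.45 and 7.64 TPM in WT M0. It ranked between 75th and 179th of all genes in LPS libraries and between 7657th and 8352nd in untreated ones. LPS raised it by 6.94 log2 units in knockout (SE 0.20, limma adjusted p 2.4e-08) and 6.47 in wild type (SE 0.16, limma adjusted p 4.2e-09), ratios of mean TPM of 136 and 98.5. Relative to the median gene that is 7.18 and 6.68.

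C3, the central component, was already plentiful without LPS. It stood at 867 and 869 TPM in KO LPS, 553 and 571 TPM in WT LPS, 230 TPM in KO M0 and 207 and 202 TPM in WT M0. Replicates lay close together and no groups overlapped, but KO M0 was a single library and the genotypes did not pass the test without LPS. LPS raised C3 by 1.91 log2 units in knockout (SE 0.17, limma adjusted p 1.4e-05) and 1.46 in wild type (SE 0.14, limma adjusted p 1.7e-05), or 2.15 and 1.66 relative to the median gene. C3 exceeded Cfb 21.9-fold to 26.5-fold in untreated libraries, whereas under LPS the ratio of C3 to Cfb was 0.67 and 0.64 in KO LPS and 0.62 and 0.72 in WT LPS.

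Cfp, properdin, was high in every group. It stood at 855 and 581 TPM in KO LPS, 641 and 670 TPM in WT LPS, 856 TPM in KO M0 and 958 and 921 TPM in WT M0. KO LPS replicate 1 was level with KO M0, and the KO LPS replicates were further apart than for 91.2% of tested genes. Cfp fell in wild type by 0.52 log2 units (SE 0.19, limma adjusted p 0.045) but not past the threshold with median-ratio scaling (-0.28, adjusted p 0.29), quantile normalization (adjusted p 0.093), no filter (0.12) or when any 1 of the 4 compared libraries was left out (0.11 to 0.18). In knockout its log2 fold change was -0.28 (95% interval -0.79 to 0.23, limma adjusted p 0.37). Relative to the median gene Cfp stood at -0.04 in knockout and -0.31 in wild type. Cfp lies on chromosome X, and the part of the Xist difference of WT LPS in its values was not tested.

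C3ar1 and C5ar1, the receptors of C3a and C5a, were both lower with LPS. C3ar1 stood at 389 and 536 TPM in KO LPS, 624 and 559 TPM in WT LPS, 1080 TPM in KO M0 and 788 and 1112 TPM in WT M0. It fell by 1.24 log2 units in knockout (SE 0.26, limma adjusted p 0.0034). In wild type it fell by 0.66 (SE 0.21, limma adjusted p 0.025), a call lost with median-ratio scaling (-0.43, adjusted p 0.14), with no filter (0.11) and without WT LPS replicate 1 (0.068), WT LPS replicate 2 (0.13) or WT M0 replicate 2 (-0.42, 0.18). Relative to the median gene C3ar1 stood at -1.001 in knockout and -0.46 in wild type.

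C5ar1 was steadier. It stood at 643 and 654 TPM in KO LPS, 590 and 585 TPM in WT LPS, 1253 TPM in KO M0 and 1029 and 1237 TPM in WT M0. The LPS and untreated libraries did not overlap, and LPS cells held 51.8% of the untreated mean in knockout and 51.9% in wild type. It fell by 0.95 log2 units in knockout (SE 0.19, adjusted p 0.0027 by limma) and by 0.94 in wild type (SE 0.15, 0.00064), or -0.71 and -0.73 relative to the median gene. C5ar1 exceeded C3ar1 in 6 of 7 libraries, WT LPS replicate 1 being the exception with a ratio of 0.946.

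The order of levels differed between LPS and untreated cells. In KO LPS the order of mean TPM was C1qb, Cfb, C3, Cfp, C1qc, C5ar1, C3ar1, C1qa and C4b, and in WT LPS it was C1qb, Cfb, C1qc, Cfp, C3ar1, C5ar1, C3, C1qa and C4b. In KO M0 it was C1qb, C1qc, C1qa, C5ar1, C3ar1, Cfp, C3, Cfb and C4b, and WT M0 kept the same order. Neighbours whose libraries overlapped were C1qb with Cfb and Cfp with C1qc in KO LPS, C3ar1 with C5ar1 in WT LPS, and C5ar1 with C3ar1 and C3ar1 with Cfp in WT M0. KO M0 has a single library and gives no spread.

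Under LPS, knockout cells held more C3 and Cfb transcript than wild-type cells, while the other 7 genes did not pass the test. C3 averaged 868 ± 1.43 TPM in KO LPS and 562 ± 12.4 TPM in WT LPS (SD, n = 2 each), 0.63 log2 units higher (SE 0.14, limma adjusted p 0.024). Cfb averaged 1333 ± 45.5 TPM in KO LPS and 842 ± 70.2 TPM in WT LPS (SD, n = 2 each), 0.66 log2 units higher (SE 0.16, limma adjusted p 0.033). That is 2 of 9 genes higher and 0 lower, where the test called 7.16% of all tested genes (4.59% higher, 2.58% lower). Both calls were lost whenever 1 of the 4 compared libraries was left out. The adjusted p of C3 was then 0.079 and 0.098 for KO LPS replicates 1 and 2, and 0.15 and 0.16 for WT LPS replicates 1 and 2. That of Cfb was 0.096 and 0.17 for KO LPS replicates 1 and 2, and 0.091 and 0.26 for WT LPS replicates 1 and 2. Their log2 fold changes stayed between 0.59 and 0.71 for C3 and between 0.58 and 0.75 for Cfb over all 15 alternatives, and Cfb also missed the threshold with median-ratio scaling (adjusted p 0.079) and with no filter (0.097).

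**Figure D3:**
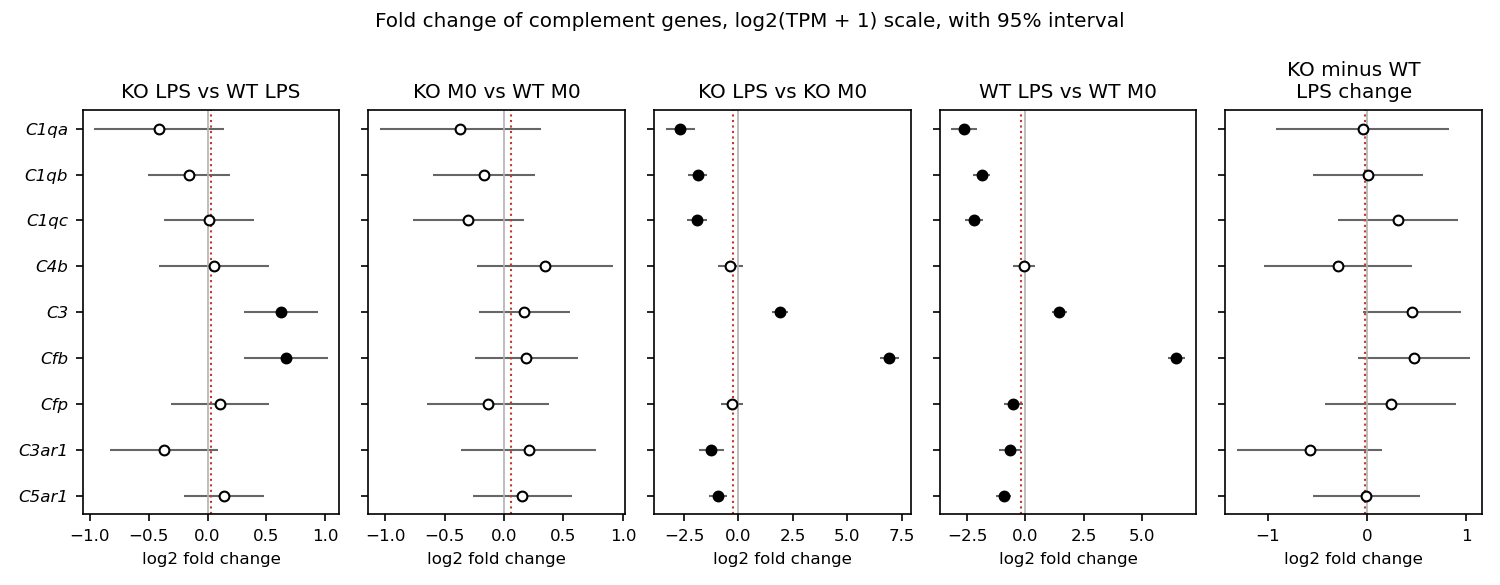
Log2 fold change (log2(TPM + 1) scale) of the 9 genes in 5 comparisons, with 95% intervals from limma; filled points passed an adjusted p of 0.05, open points did not, and the dotted line is the median of all tested genes. Between genotypes under LPS, C3 (0.63) and Cfb (0.66) are the filled points, and no gene is filled in untreated cells or in the difference between LPS changes.

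Some markers of other cells also differed in this comparison, among them Col1a1 (limma adjusted p 0.0092) and Kdr (1.89 log2 units, limma adjusted p 0.00088). The Col1a1 call was lost with no filter (limma adjusted p 0.076). The 9 stromal genes summed to 31.3 and 26.6 TPM in KO LPS and 21.2 and 23.4 TPM in WT LPS. Most of this was Pdgfrb, at 27.7 and 19.9 TPM in KO LPS and 18.2 and 21.2 TPM in WT LPS. Pdgfrb did not pass (0.25 log2 units, limma adjusted p 0.61), nor did Dcn, which had the opposite sign (-0.76, limma adjusted p 0.33). The collagen gene Col1a1 stood at 1.18 and 1.56 TPM in KO LPS and was listed at 0 in WT LPS, with Col1a2, Col3a1 and Sparc also at 0 there. The 6 endothelial genes summed to 49.1 and 49.3 TPM in KO LPS and 18.3 and 12.4 TPM in WT LPS, mostly Kdr. Pecam1, a defining endothelial gene, stood at 2.12 and 2.30 TPM in KO LPS and 0.585 and 0.333 TPM in WT LPS (1.14 log2 units, limma adjusted p 0.012), and Vwf at 8.48 and 7.66 TPM in KO LPS and 4.62 and 4.59 TPM in WT LPS (0.69 log2 units, limma adjusted p 0.067), while Tek was at 0.0489 TPM or less in all 7 libraries. The 4 monocyte genes summed to 71.5 and 96.6 TPM in KO LPS and 280 and 246 TPM in WT LPS. Among neutrophil genes, S100a8 stood at 96.9 and 152 TPM in KO LPS and 196 and 321 TPM in WT LPS. That is -1.04 log2 units (limma adjusted p 0.039), while Camp and Csf3r did not pass. The part of these markers in the higher C3 and Cfb was not tested.

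None of the C1q chains passed the test between genotypes under LPS. The log2 fold change was -0.41 for C1qa (95% interval -0.96 to 0.14), -0.16 for C1qb (-0.51 to 0.19) and 0.01 for C1qc (-0.37 to 0.39), with limma adjusted p of 0.41, 0.66 and 0.99. The C1qc value turned negative with median-ratio scaling (-0.02) and quantile normalization (-0.02). C3ar1 had a log2 fold change of -0.37 (-0.83 to 0.09), C5ar1 0.14 (-0.20 to 0.48), Cfp 0.11 (-0.31 to 0.52) and C4b 0.05 (-0.42 to 0.52). For C1qb and C3ar1 both KO LPS libraries lay under both WT LPS libraries, and for C5ar1 both lay above. For C1qa, C1qc, C4b and Cfp the genotypes overlapped. How many of all tested genes were separated in this way was not counted.

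In untreated cells 0 of the 9 genes passed between genotypes by limma. An unadjusted p under 0.05 was found for 0 of the 9, and for 154 of the 11096 tested genes. Of all tested genes, 0.00901% passed, which was 1 gene, Tgm2. The log2 fold changes ran from -0.37 for C1qa (95% interval -1.04 to 0.31) to 0.34 for C4b (-0.23 to 0.92), with C3 at 0.17 (-0.21 to 0.55) and Cfb at 0.19 (-0.25 to 0.63). KO M0 lay under both WT M0 libraries for the 3 C1q chains and Cfp, above both for C4b, C3, Cfb and C5ar1, and between them for C3ar1. A single KO M0 library entered this comparison. How many of all tested genes lay outside both WT M0 libraries was not counted, so these positions are only a description.

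The LPS change was not shown to differ between genotypes for any of the 9 genes. The limma test was of the difference, the LPS change in knockout minus that in wild type. It called 0 of 9, where it called 1.37% of all tested genes (0.847% higher, 0.523% lower). An unadjusted p under 0.05 was found for 0 of the 9, and for 1160 of the 11096 tested genes. The difference was 0.46 log2 units for C3 (95% interval -0.04 to 0.95, limma adjusted p 0.53), 0.48 for Cfb (-0.09 to 1.04, 0.58) and -0.58 for C3ar1 (-1.31 to 0.16, 0.61). For C1qa it was -0.04 (-0.91 to 0.83), for C1qb 0.01 (-0.55 to 0.56) and for C5ar1 -0.01 (-0.55 to 0.53). It was 0.31 for C1qc (-0.29 to 0.92), 0.24 for Cfp (-0.42 to 0.90) and -0.29 for C4b (-1.03 to 0.45).

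Other genes of the pathway were read from a list of 52, of which 14 were listed at 0 in all libraries and 19 passed the filter on low values. The terminal components that form the membrane attack complex were hardly present: C6, C7, C8a and C8b were listed at 0 throughout, and 6 of 7 terminal genes, as well as factor D (Cfd) and factor I (Cfi), stayed under 1 TPM in every library. Of the 19, 4 rose and 10 fell in KO LPS relative to KO M0, and likewise 4 and 10 in WT LPS relative to WT M0, where 13.8% of all tested genes rose and 24.3% fell in knockout and 15% rose and 29.6% fell in wild type. The median log2 fold change was -0.62 in knockout and -0.73 in wild type, again beside -0.24 and -0.21 over all tested genes.

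C5ar2 (listed as Gpr77), a further C5a receptor whose gene lies 2588 bases from C5ar1 on chromosome 7, fell by 3.01 log2 units (SE 0.27) in knockout and 2.52 (SE 0.22) in wild type. It stood at 1.52 TPM in both KO LPS libraries, 1.63 and 1.55 TPM in WT LPS, 19.3 TPM in KO M0 and 11.8 and 16.3 TPM in WT M0.

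Cd93, a surface protein first described as a C1q receptor, fell by 2.65 log2 units in knockout (SE 0.29) and 2.88 in wild type (SE 0.24). Lrp1, an endocytic receptor, fell by 1.59 in knockout (SE 0.20) and 1.43 in wild type (SE 0.16). The limma adjusted p of these 3 genes in the LPS comparisons lay between 5.6e-06 and 0.00015, and the falls also passed with median-ratio scaling.

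**Figure D4:**
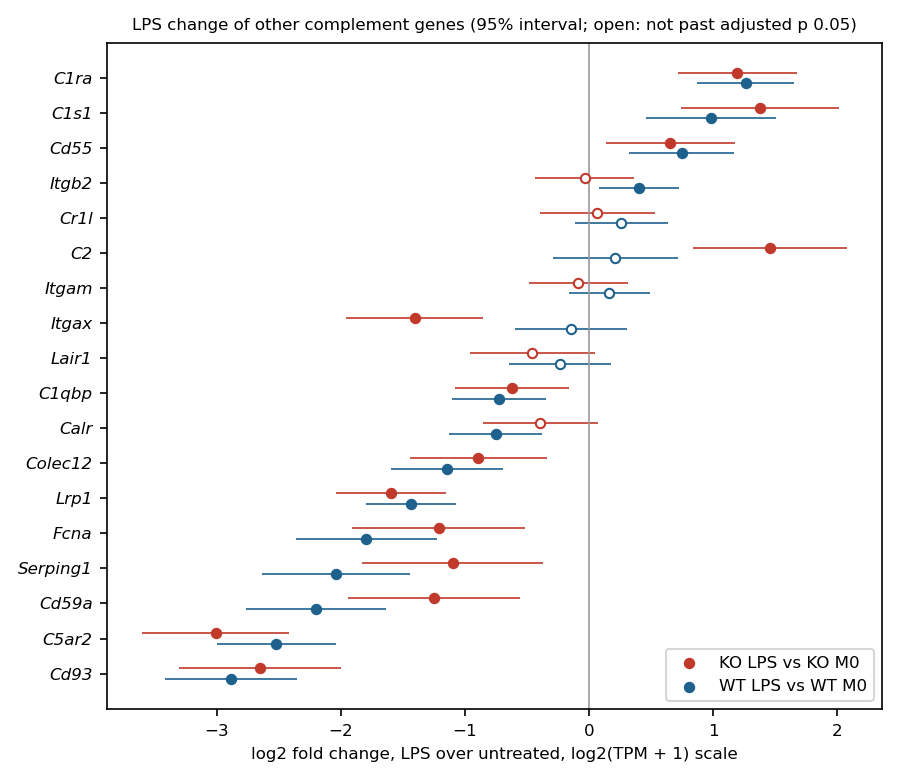
Log2 fold change with LPS (log2(TPM + 1) scale, 95% interval) of 18 of the 19 tested genes of the wider complement list, in knockout (red) and wild type (blue); filled points passed an adjusted p of 0.05. Cd93 and C5ar2 lie below -2 in both genotypes.

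Between genotypes under LPS, 2 of the 19 rose and 1 fell, where 4.59% of all tested genes were higher and 2.58% lower. Itgax, a chain of complement receptor 4, stood at 3.43 and 3.51 TPM in KO LPS and 10.9 and 8.43 TPM in WT LPS, which is -1.25 log2 units (SE 0.20, limma adjusted p 0.0044, and 0.054 with no filter). Cd59a, which blocks the membrane attack complex, stood at 6.04 and 6.12 TPM in KO LPS and 1.49 and 3.25 TPM in WT LPS, which is 1.12 log2 units higher (SE 0.25, limma adjusted p 0.025). That call was lost without KO LPS replicate 1 (adjusted p 0.091), KO LPS replicate 2 (0.12), WT LPS replicate 1 (0.74 log2 units, 0.12), WT M0 replicate 1 (0.056) or WT M0 replicate 2 (0.0535), and with no filter (0.16).

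The third was C2, the classical pathway partner of C4, which falls outside the rule for named genes and was named after its values were seen. It stood at 4.39 and 3.57 TPM in KO LPS and 1.62 and 1.13 TPM in WT LPS, which is 1.07 log2 units higher (SE 0.23, limma adjusted p 0.019). The call was lost without KO LPS replicate 1 (adjusted p 0.11), KO LPS replicate 2 (0.056) or WT LPS replicate 2 (0.12) and with no filter (0.063). The spans of C2 and Cfb lie 87 bases apart on chromosome 17, and whether reads of the neighbours were kept apart is not given in the sources used here.

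Genes with the most similar pattern over the 7 libraries were found by Pearson correlation of log2(TPM + 1) among 7767 named protein-coding genes with a mean of at least 5 TPM, as a description with no test, since the libraries share the LPS contrast. The mean of the C1q chains was closest to Lsm6, Rab11fip5 and Angptl2 (r of 0.9977 to 0.9985), with 833 genes at 0.95 or more. C3 was closest to Hk2, Fmnl2 and Cyb5r4 (0.9965 to 0.9981) and Cfb to Parp9, Gbp6 and Acsl5 (0.9994 to 0.9996). Id2 and Tollip (0.989 and 0.986) were among the 3 closest to C3ar1. C5ar1 was closest to Asph, Nr1d2 and Txndc16 (0.9976 to 0.9981), Cfp to Ccdc115, Taok2 and Mrps5 (0.987 to 0.991) and C4b to Trit1, Snrk and Glrx2 (0.903 to 0.959). At 0.95 or more there were 589 genes for C3, 647 for Cfb and 793 for C5ar1. For C3ar1, Cfp and C4b the numbers were 84, 42 and 1.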

How the data were processed

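Total RNA was sequenced in 7 libraries by the submitters. The authors deposited a TPM table per library with 23337 genes, summing to 1000000 each. Per the submitters' processing notes the genome was mm10. How reads were aligned, assigned to genes and strand and quantified is not given in the sources used here. Depth is unknown, so no counting interval is given.

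A gene was tested if its TPM averaged 1 or more across libraries, which 11096 did. Tests were made with limma 3.58.1 in R 4.3.3 on log2(TPM + 1), with 4 group means over all libraries, trended variance moderation (residual degrees of freedom 3) and Benjamini-Hochberg adjustment over all tested genes at 0.05. All 9 complement genes passed the filter. The steps were tested on simulated data, where false calls ran somewhat above the nominal share and small effects were mostly missed by the test of the difference between LPS changes. Older symbols matched 4 of the 52 listed pathway genes through RefSeq (GRCm38.p6). Pathway genes were named if they passed in a comparison with at least 5 TPM in the higher group, at most 4 per comparison by p. Some same-numbered libraries deviated together (correlations 0.18, 0.30 and 0.08 between groups), and the labels do not pair them. Alternatives were median-ratio scaling, quantile normalization, a pseudocount of 0.1, no filter, a minimum mean TPM of 5, an adjusted p of 0.01, the compared groups alone, the replicate number as a block, and each library left out. Some genes of these lists are not reported here. The genes and lists were chosen with earlier results of these data known. Figures were drawn with matplotlib 3.10.9.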

Additional observations from a re-analysis of the deposited data

How the results depend on the processing

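The number of the 9 genes called was 2 in KO LPS vs WT LPS, and fell to 1 with median-ratio scaling and with no filter (C3 remaining) and to 0 at an adjusted p of 0.01. It ranged from 0 to 2 with a library left out: 0 without any of the 4 compared libraries and 2 without the others. It was 0 in every alternative run for KO M0 vs WT M0 and for the difference between LPS changes, 7 in all for KO LPS vs KO M0, including without both WT LPS libraries, and 6 to 8 for WT LPS vs WT M0, where Cfp and C3ar1 were lost. With the replicate number as a block over the 6 numbered libraries the counts were 2 in KO LPS vs WT LPS and 8 in WT LPS vs WT M0. The title of KO M0 carries no number but its column header does. With KO M0 as number 1, a block chosen after seeing the data, the counts were 0 in KO M0 vs WT M0, 7 in KO LPS vs KO M0 and 0 for the difference between LPS changes, where C1qa turned to 0.21 log2 units (adjusted p 0.66 by limma).

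Log2 values that turned round in sign were of genes past the threshold in neither setting. With scaling they were, in KO LPS vs WT LPS, C1qc (-0.021 with median-ratio scaling and -0.017 with quantile normalization) and C4b (-0.095 with quantile normalization), in WT LPS vs WT M0 C4b (0.071 with median-ratio scaling and 0.27 with quantile normalization), and in the difference between LPS changes C5ar1 (0.0069 with median-ratio scaling). With 1 library left out, the ranges that crossed 0 were -0.019 to 0.044 for C1qc and -0.17 to 0.38 for Cfp in KO LPS vs WT LPS, and -0.042 to 0.46 for C3ar1 in KO M0 vs WT M0. In the difference between LPS changes they were -0.14 to 0.12 for C5ar1, -0.41 to 0.33 for C1qa, -0.11 to 0.13 for C1qb and -0.038 to 0.52 for Cfp. The cause was not tested.

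Over all tested genes the count in KO LPS vs WT LPS was 795, against 307 with no filter, 362 at an adjusted p of 0.01, 506 and 385 when KO LPS replicate 1 or 2 was left out, and 428 for WT LPS replicate 2. In KO M0 vs WT M0 it was 1, against 2 with a pseudocount of 0.1, 20 with no filter, 40 with the compared groups alone and 6 without WT M0 replicate 2. In KO LPS vs KO M0 it was 4233, against 2681 at 0.01. For the difference between LPS changes it was 152, against 92 with a pseudocount of 0.1, 10 with no filter, 28 at 0.01 and 16 to 139 with a library left out. A group with 1 library left was assumed to vary like the others. The number of libraries, and for C4b its low level, limit what can be seen.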

Other observations

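Among the other genes of early classical activation, C1ra, a protease of the C1 complex, rose with LPS in both genotypes while the C1q chains fell. C1ra stood at 24.9 and 25.3 TPM in KO LPS, 25.4 and 29.2 TPM in WT LPS, 10.4 TPM in KO M0 and 11.2 and 10.4 TPM in WT M0. Its log2 fold change was 1.19 in knockout (SE 0.22, limma adjusted p 0.0015) and 1.26 in wild type (SE 0.18, limma adjusted p 0.000225). C1s1 (listed as C1s), its partner protease, rose with it from a lower level (1.38 log2 units in knockout, limma adjusted p 0.0038, and 0.98 in wild type, 0.0066). Both were named after their values were seen.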
